A study of Homo sapiens with 15 samples.

Results

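The NP-ctrl arm is the spontaneous course of mesendoderm left in the same wells. Its members are the 4 libraries labelled NP-ctrl, from days 3, 5, 7 and 10, out of 15 libraries in the series, and they were compared only with each other over time. The cells were wild-type H1, an established human embryonic stem cell line. All 4 cultures had received CHIR99021, a GSK3 inhibitor that activates WNT signalling, at 5 µM on day 0 and insulin at 1 µg/ml on day 1. They then stayed in a defined medium (DF medium) with ascorbic acid, transferrin and lipids, were not passaged, and received no WNT inhibitor. Transcripts were measured by bulk RNA sequencing with 1 library per day from 1 line, so no value has a replicate, no test was possible, and all intervals cover counting error only. In bulk RNA, fewer cells of a type and less RNA per cell cannot be told apart.

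Mesendoderm is the transient population from which mesoderm and endoderm arise in the primitive streak. Its first derivatives in the embryo include the extraembryonic mesoderm, the heart and the body wall mesoderm on the one hand, and the definitive endoderm on the other. WNT activity drives entry into this state, and a later fall in WNT activity favours the heart. The time course asks which of these lineages appear when that second step is not imposed, and in which order.

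Total counts were 16253300, 15669741, 13254723 and 13461749 on days 3, 5, 7 and 10, and the mitochondrial genome held 3.71% to 4.80% of them. Levels are FPKM, counts of a gene scaled to its exon length and to the total count of the library. A gene with 1 kilobase of exon and 3 counts has an FPKM of 0.185 to 0.226 in these libraries. Of 60605 genes, 14877 had an FPKM of at least 1 and at least 30 counts on at least 1 day. A gene was called higher or lower between 2 days when log2(FPKM + 1) differed by at least 1, which is a rule of size and not of significance, and "rose" and "fell" below refer to this rule. Genes were ranked by the same difference, which places a gene with a high level above one with a larger fold from or to a low level. The labels give the cell type as embryonic stem cells. NANOG, a core factor of that state, had 50 counts on day 3 and at most 2 counts on each later day, so the label describes the starting line and not the cells sampled.

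Most of the change fell between days 3 and 5. From day 3 to day 5, 1015 genes (6.82%) rose and 930 genes (6.25%) fell. From day 5 to day 7, 577 genes (3.88%) rose and 278 (1.87%) fell. From day 7 to day 10, an interval of 3 days, 345 genes (2.32%) rose and 136 (0.914%) fell. Over the whole course from day 3 to day 10, 2036 genes (13.7%) rose and 1732 (11.6%) fell, and the median difference over all 14877 genes was 0.03. With TPM, which rescales each library by its summed FPKM, the median gene was 0.30 higher on day 10 than on day 3 and 71.0% of the calls were increases, against 54.0% with FPKM. With TMM and median-of-ratios scaling 49.0% and 47.2% were increases and the median differences were -0.04 and -0.07, so whether more genes rose than fell depended on the scaling. Of the 1015 genes that rose by day 5, 708 were still at least 1 above their day 3 level on day 10, and 160 had come down again by at least 1. A further 12148 genes (81.7%) were called in none of the 3 successive intervals.

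The order of the programmes is seen in the medians of 30 gene lists, which hold 417 genes of which 308 passed the filter. The primitive streak, pluripotency, nascent mesoderm, presomitic and mitosis lists were highest on day 3. Early endoderm and the trophoblast and amnion list were highest on day 5. Cardiac transcription factors were highest on day 7, and the cardiomyocyte, stromal matrix, basement membrane, epicardium, endothelium, sterol synthesis and liver and yolk sac lists were highest on day 10.

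**Figure D1:**
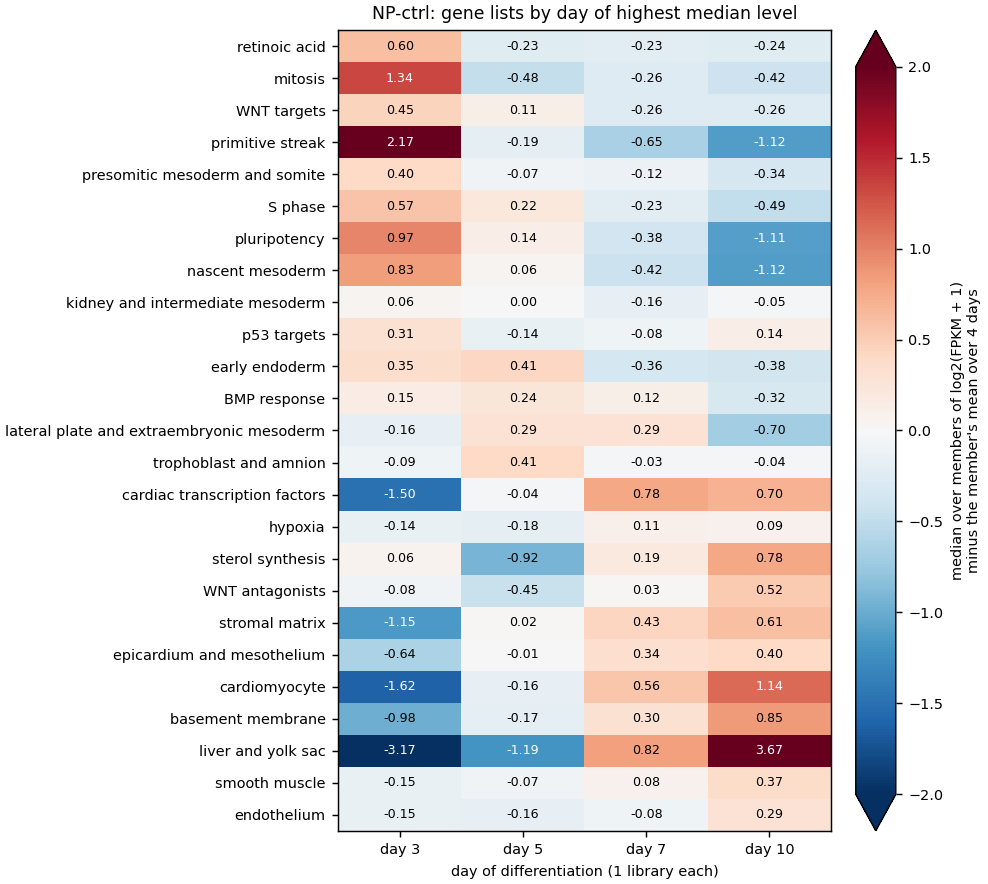
Median level of 25 gene lists on each day of the NP-ctrl course. Each cell is the median over list members of log2(FPKM + 1) minus that member's mean over the 4 days (1 library per day), with colours ending at 2 and -2. The primitive streak list stands at 2.17 on day 3 and -1.12 on day 10, and the liver and yolk sac list at -3.17 on day 3 and 3.67 on day 10. The 5 lists whose values all lay within 0.1 of 0 were not drawn.

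The transcripts of the starting state and of the streak left first. In the pluripotency list, 5 of 11 genes fell from day 3 to day 5 and 10 of 11 had fallen by day 10, with a median difference of -2.38. POU5F1 (ENSG00000204531, chromosome 6, 31164337 to 31180731), which encodes the pluripotency factor OCT4, had FPKM of 82.1, 6.26, 0.16 and 0.03 on days 3, 5, 7 and 10. Its level was 13.1-fold lower (95% interval 11.6 to 14.9) on day 5 than on day 3. The genes of this list did not leave together. LIN28A, an RNA-binding protein that blocks let-7 processing, had FPKM of 194, 224, 90.1 and 23.3. ZFP42 and L1TD1 were likewise highest on day 5, at 26.2 and 31.4 FPKM. DPPA4 still had 15.1 FPKM on day 10, and DNMT3B, a DNA methyltransferase of early embryonic cells, had 5.55. These stem cell transcripts were thus still measured after POU5F1 had reached 6 counts on day 7.

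Of 10 primitive streak genes, 7 fell from day 3 to day 5 and 9 had fallen by day 10. EOMES, a T-box factor of the anterior streak, had FPKM of 15.3, 0.70, 0.08 and 0.00. FOXH1, the DNA-binding partner of NODAL signalling, had FPKM of 111, 31.3, 9.65 and 1.95 and kept 28.1% of its day 3 level on day 5. NODAL itself was highest on day 5, at 3.27 FPKM. CFC1, a NODAL coreceptor gene with a near-identical copy (CFC1B) that makes its count uncertain, had the largest decrease of any protein-coding gene from day 3 to day 10 in log2(FPKM + 1), with FPKM of 393, 39.2, 4.24 and 0.98. The 10 largest decreases over this span also included VRTN, POU5F1, APLNR, GAL, CRABP1, DLL3, PRAC1 and SP5.

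MESP1 and MESP2, the basic helix-loop-helix factors of nascent and presomitic mesoderm, lie next to each other and are similar in sequence, so their counts may not be fully separated. MESP1 (ENSG00000166823, chromosome 15, 89748661 to 89751310) had FPKM of 41.8, 0.92, 0.51 and 0.19. MESP2 had FPKM of 46.5, 0.21, 0.17 and 0.29 and showed the largest decrease of any protein-coding gene between days 3 and 5 in log2(FPKM + 1). As a ratio it was 219-fold lower (101 to 599) on day 5. Both were below 1 FPKM from day 5 on. Of the other nascent mesoderm genes, the apelin receptor gene APLNR fell more slowly, with FPKM of 366, 50.5, 9.84 and 5.73. The receptor gene PDGFRA had FPKM of 83.4, 67.2, 32.5 and 22.0. RSPO3, which encodes a secreted enhancer of WNT signalling, went the other way, with 2.32 FPKM on day 3 and 29.8 on day 10.

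The paraxial programme was highest on day 3 and then fell. Of 13 presomitic and somite genes, 6 fell from day 3 to day 5, beside 6.25% of all genes. None rose in any interval, which says little for 13 genes when 6.82% of all genes rose from day 3 to day 5. TBX6, the determinant of presomitic mesoderm, had FPKM of 19.4, 1.25, 0.86 and 0.37. DLL3, a Notch ligand of the segmentation clock, had FPKM of 105, 5.53, 1.61 and 1.50. PAX1 had 0 counts on every day, PAX3 had 9 to 20 counts, and MEOX1 had at most 25, so these 3 somite factors stayed below 1 FPKM. UNCX, a factor of the posterior somite, was an exception with FPKM of 5.21, 6.47, 4.55 and 0.92. Another was LFNG, with 3.65, 4.58, 4.98 and 1.64 FPKM.

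Among lateral plate and extraembryonic mesoderm genes, HAND1, BMP4 and MSX1 stayed abundant up to day 7. Of the 11 genes, 4 were highest on day 3, beside 36.7% of all genes. HAND1 (ENSG00000113196, chromosome 5, 154474972 to 154478227), a factor of extraembryonic mesoderm and the early heart, had FPKM of 671, 570, 748 and 298. It was the eighth most abundant protein-coding nuclear transcript on day 7. HAND2, its paralogue of the lateral plate, had FPKM of 28.1, 49.5, 70.8 and 66.1. BMP4, which encodes a ligand made by extraembryonic and lateral mesoderm, had FPKM of 74.9, 154, 94.8 and 45.2. The homeobox gene MSX1 was highest on day 7 at 166 FPKM, whereas MSX2 went from 94.4 on day 3 to 11.4 on day 10. PRRX1, a homeobox factor of limb and body wall mesenchyme, was transient. Its FPKM were 0.45, 47.4, 16.4 and 5.70, a rise of 106-fold (82.1 to 139) followed by a decline of 8.31-fold (7.65 to 9.03) to day 10. Of the 11 genes of the list, 4 rose and 2 fell by day 5, beside 6.82% and 6.25% of all genes. Between days 7 and 10, 5 fell, beside 0.914% of all genes.

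**Figure D2:**
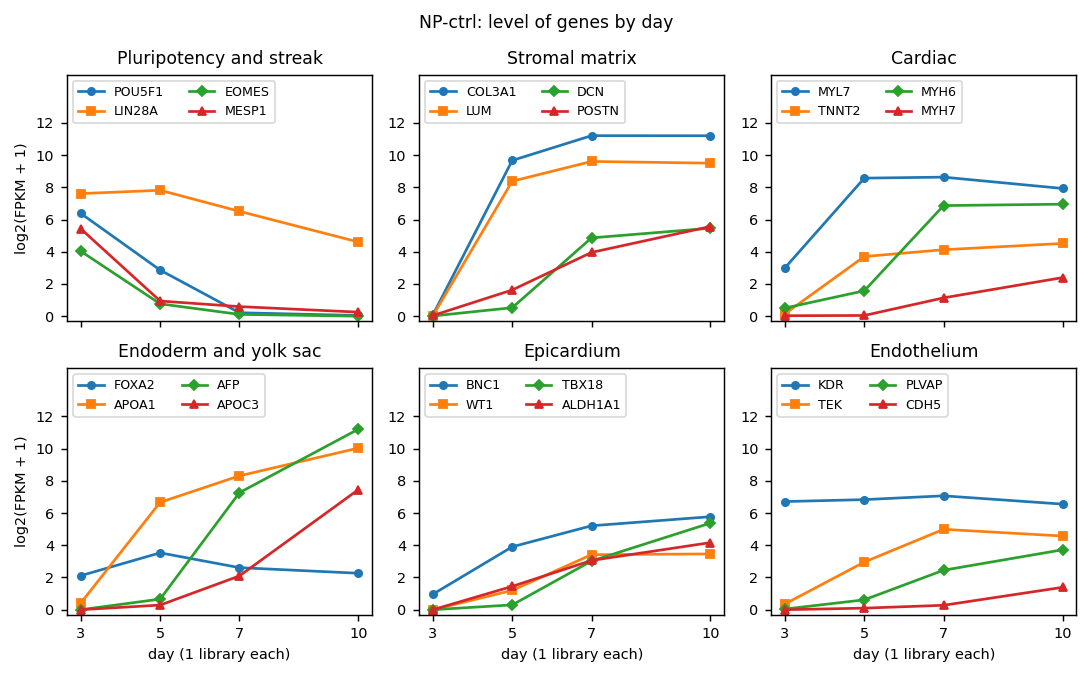
Level of 24 genes on the 4 days of the NP-ctrl course, in log2(FPKM + 1), with 4 genes in each of 6 panels and 1 library per day. POU5F1, EOMES and MESP1 drop between days 3 and 5, COL3A1, LUM, MYL7, TNNT2 and APOA1 climb over the same interval, MYH6, DCN, WT1 and AFP climb between days 5 and 7, and APOC3 and CDH5 climb mainly between days 7 and 10.

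Stromal matrix genes held the largest share of counts of the 30 lists on day 10. The 20 genes of the list held 0.545%, 2.07%, 3.91% and 3.96% of all counts on the successive days. Of these genes, 10 rose from day 3 to day 5, 8 from day 5 to day 7 and 2 from day 7 to day 10. COL3A1 (ENSG00000168542, chromosome 2, 188974373 to 189012746), the chain of type III collagen, had counts of 7, 85943, 211394 and 213938. The corresponding FPKM were 0.06, 812, 2360 and 2352. Its 12735-fold increase (6181 to 31675) by day 5 was the largest of any protein-coding gene in that interval on the log2 scale, and on day 10 it held 1.59% of the library. COL1A1, a type I collagen chain, started from a higher level, with FPKM of 41.1, 457, 775 and 871.

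Within the matrix list the fibrillar collagens reached high levels before decorin and periostin did. LUM, the keratan sulfate proteoglycan lumican, had FPKM of 0.02, 332, 778 and 723 and moved with COL3A1. DCN, which encodes decorin, had FPKM of 0.01, 0.44, 28.1 and 43.1 and rose mainly between days 5 and 7, by 63.9-fold (51.8 to 79.7). POSTN, which encodes the matricellular protein periostin, had FPKM of 0.03, 2.09, 14.5 and 46.4 and still rose 3.19-fold (2.98 to 3.42) from day 7 to day 10. LOX, the collagen crosslinking enzyme, had FPKM of 4.52, 0.80, 2.75 and 12.1, so it was lowest on day 5, when COL3A1 first appeared. BGN, which encodes biglycan, had a similar dip, with FPKM of 14.3, 1.54, 4.24 and 8.71.

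The basement membrane list was also highest on day 10, with 11 of 12 genes higher than on day 3. Its members differed in time. LAMA1, the laminin chain of early embryonic basement membranes, had FPKM of 21.1, 85.0, 46.8 and 23.6 and was highest on day 5. LAMC1, the gamma chain shared by most laminins, had FPKM of 35.7, 150, 190 and 227. COL4A1, a type IV collagen chain, rose 2.26-fold (2.18 to 2.35) between days 7 and 10, to 49.6 FPKM. NPNT, the integrin ligand nephronectin, had FPKM of 0.34, 19.0, 69.9 and 169.

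Cardiac genes rose in each of the 3 intervals. Of 26 cardiomyocyte genes, 13 rose from day 3 to day 5, 10 from day 5 to day 7 and 4 from day 7 to day 10, and 20 were higher on day 10 than on day 3, with a median difference of 2.96. The list held 0.0759%, 0.666%, 0.764% and 0.756% of counts over the same days. Among those that rose by day 5 were MYL7, ACTC1, TNNT2 and TPM1, and also ACTN2, NEBL, RYR2, PLN and TTN. The 2 that fell by day 5 were TNNI3, the adult troponin I, from 1.42 to 0.06 FPKM, and the natriuretic peptide gene NPPB. NPPB had FPKM of 9.21, 2.97, 7.25 and 3.78 and was the 1 gene of the list lower on day 10 than on day 3. MYL7 (ENSG00000106631, chromosome 7, 44138864 to 44141332), the atrial regulatory light chain and an early marker of the heart tube, had FPKM of 7.01, 379, 395 and 243. Cardiac alpha actin, ACTC1, had FPKM of 8.14, 184, 222 and 207. Cardiac troponin T, TNNT2, had FPKM of 0.11, 12.0, 16.5 and 21.8, and was 110-fold higher (64.3 to 208) on day 5 than on day 3. SMYD1, a muscle methyltransferase, also appeared by day 5, with FPKM of 0.03, 10.5, 6.53 and 10.9.

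Between days 5 and 7 the 10 risers included MYH6, TNNC1 and MYL4, which had also risen by day 5, and MYBPC3. MYH6 (ENSG00000197616, chromosome 14, 23381982 to 23408273), the alpha myosin heavy chain, had FPKM of 0.42, 1.98, 116 and 123. MYBPC3, cardiac myosin-binding protein C, had counts of 0, 3, 1206 and 1909 and FPKM of 0.00, 0.04, 21.3 and 33.2. SLN, which encodes sarcolipin, the atrial inhibitor of the calcium pump, had the largest increase of any protein-coding gene from day 5 to day 7. Its counts were 0, 1, 3416 and 1884, and its FPKM 0.00, 0.07, 284 and 154. The cardiac factor genes NKX2-5 and TBX5 rose in the same interval. NKX2-5 had FPKM of 2.01, 1.31, 19.9 and 26.2, and TBX5 had 0.40, 1.64, 10.3 and 19.0. TNNT2, MYL7 and ACTC1 had therefore risen on a day when NKX2-5 was still at 42 counts.

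The 4 cardiomyocyte genes that rose from day 7 to day 10 were MYH7, MYL3, LDB3 and CSRP3, of which the first 3 had also risen from day 5 to day 7. MYH7, the beta myosin heavy chain, which is highly similar in sequence to its neighbour MYH6, had counts of 2, 3, 96 and 346 and FPKM of 0.02, 0.03, 1.20 and 4.26. MYL3, the ventricular essential light chain, had FPKM of 4.81, 2.82, 7.61 and 27.3. LDB3, a protein of the Z-disc, had FPKM of 0.05, 0.74, 4.02 and 10.5, and CSRP3, another Z-disc protein, had 0.00, 0.08, 0.92 and 4.46. The sodium-calcium exchanger gene SLC8A1 had FPKM of 0.06, 0.46, 3.03 and 7.01 and its last difference, 0.99, lay just under the rule. The ventricular factors IRX4 and HEY2 dipped and then rose from day 7 to day 10. IRX4 had FPKM of 9.70, 3.00, 2.61 and 7.92, and HEY2 had 19.3, 4.72, 2.33 and 7.15. On day 10 IRX4 was at 81.6% of its day 3 level, but HEY2 was at 37.1% and still lower than on day 3 by the rule. MYL2, the ventricular regulatory light chain, had 0 counts on all 4 days, and NPPA, which encodes the atrial natriuretic peptide, had 5 to 8.

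Smooth muscle genes were uneven. ACTA2, the smooth muscle alpha actin that embryonic cardiomyocytes and myofibroblasts also make, was among the 5 largest increases from day 3 to day 5, with FPKM of 0.27, 84.5, 108 and 68.5. CALD1 had FPKM of 11.6, 51.7, 84.4 and 76.3, and LMOD1 had 0.95, 3.28, 10.2 and 11.3. TAGLN differed by less than the rule between days, from 10.6 to 19.8 FPKM. MYH11, the smooth muscle myosin that defines the mature type, had 18 to 21 counts on every day.

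The median of the epicardium and mesothelium list was highest on day 10, but its members were mixed. Of 15 epicardium and mesothelium genes, 7 rose from day 3 to day 5, 6 from day 5 to day 7 and 2 from day 7 to day 10. WT1 (ENSG00000184937, chromosome 11, 32387775 to 32435564), a zinc finger factor of the mesothelium, had counts of 0, 166, 1043 and 1097 and FPKM of 0.00, 1.30, 9.68 and 10.0. TBX18 (ENSG00000112837, chromosome 6, 84687351 to 84764598), a T-box factor of the epicardium and its precursor, had FPKM of 0.00, 0.23, 7.13 and 40.6. TBX18 was 5.69-fold higher (5.29 to 6.14) on day 10 than on day 7, while WT1 was 1.04-fold higher (0.951 to 1.13), an interval that includes 1. The mesothelial zinc finger gene BNC1 had FPKM of 0.95, 14.0, 36.0 and 53.7. On day 5 BNC1 was at 26.0% of its highest level, against 13.0% for WT1. On day 7 BNC1 was at 67.1%, against 96.6% for WT1. ALDH1A1, a retinaldehyde dehydrogenase, had FPKM of 0.00, 1.73, 7.33 and 17.0, whereas ALDH1A2, the enzyme of the embryonic epicardium, had 1.06 or less on every day. MSLN reached 1.26 FPKM on day 10, and LHX9 had at most 4 counts. KRT19, a keratin of many epithelia and the most abundant member, went the other way, with FPKM of 465, 467, 343 and 203. CALB2, which encodes calretinin, had FPKM of 3.80, 8.48, 6.34 and 2.40, and TCF21, a factor of epicardial fibroblast precursors, had 7.69, 7.29, 5.66 and 6.91.

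Endothelial genes that passed the filter did not share a day of highest level. Of these 11 genes, 4 peaked on day 3 and 4 on day 10, beside 36.7% and 29.1% of all genes. SOX7, KDR and TEK peaked in between. KDR, the VEGF receptor gene, had FPKM of 104, 113, 133 and 93.0, but this receptor is also made by mesoderm progenitors. TEK, the angiopoietin receptor gene, had FPKM of 0.28, 6.77, 30.8 and 22.8. PLVAP, a protein of endothelial diaphragms, had FPKM of 0.03, 0.53, 4.47 and 12.2. CDH5 (ENSG00000179776, chromosome 16, 66366622 to 66404784), the endothelial cadherin, had counts of 0, 7, 17 and 133, and its day 10 level was 7.70-fold higher (4.63 to 13.6) than on day 7. PECAM1 had counts of 0, 3, 7 and 84, CD34 had 0, 8, 3 and 71, EMCN had 0, 1, 3 and 51, and ERG had 4, 2, 4 and 36. These 4 genes were all highest on day 10 yet stayed under 1 FPKM. The specifying factor ETV2 was highest on day 3, at 49 counts. The 3 genes lower on day 10 than on day 3 were VWF, SOX18 and EGFL7. VWF, which encodes von Willebrand factor, had counts of 390, 160, 26 and 49. SOX18, an endothelial transcription factor, had FPKM of 3.83, 0.48, 0.24 and 1.32, and EGFL7, a secreted angiogenic factor, had 20.9, 7.02, 7.21 and 8.66. Of the 21 genes, 4 were higher on day 10 than on day 3 and 3 were lower, beside 13.7% and 11.6% of all genes.

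No member of the blood list rose in any of the 3 successive intervals, in which 2.32% to 6.82% of all genes rose. Of its 14 genes, GATA1 had at most 6 counts, PTPRC at most 1, and HBZ, HBG1 and HBA1 had 0 on every day, although the last pair have near-identical copies that can take their reads. KLF1, an erythroid factor, had 235, 118, 51 and 6 counts, and HBE1, which encodes epsilon globin, had 11, 27, 5 and 0. Of 13 neural and neural crest genes, 4 passed the filter. PAX6 had 0 to 3 counts, NEUROG2 had 0, and SOX1 had 5 or fewer. The crest factors SOX10 and FOXD3 had 172 and 55 counts on day 3 and at most 11 later. STMN2, a neuronal tubulin regulator, had FPKM of 4.46, 0.00, 0.33 and 8.55. In the kidney list, SALL1 had FPKM of 66.5, 14.9, 5.51 and 3.06, PAX2 had 140 and 34 counts on days 3 and 5 and 0 counts after them, and NPHS1, which encodes nephrin, had 1, 2, 1 and 89 counts. The intestinal genes KRT20 and MUC2 had 0 counts on day 10, CDX2 had FPKM of 2.55, 1.38, 0.71 and 1.42, and VIL1, which encodes villin, had 0.00, 2.77, 1.48 and 1.52.

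The median of the trophoblast and amnion list, whose genes are also made by surface ectoderm, was highest on day 5. Of 12 genes, 4 rose from day 3 to day 5, and 3 fell from day 5 to day 7. TFAP2A, an AP-2 factor, had FPKM of 0.16, 4.57, 1.27 and 0.53. KRT7, a keratin of simple epithelia, had FPKM of 0.18, 8.19, 3.11 and 0.91, and was 44.3-fold higher (25.2 to 86.4) on day 5 than on day 3. GABRP (ENSG00000094755, chromosome 5, 170763350 to 170814047), a GABA receptor subunit found in amnion, stayed up, with FPKM of 0.65, 20.9, 20.0 and 15.6. CGA, CGB5, ELF5, TP63 and HSD3B1, which mark differentiated or progenitor trophoblast and stratified epithelium, had at most 13 counts on any day. The 5 genes whose day 5 level exceeded every other day by most were CBLN2, CDC20B, PLPPR4, LRP1B and CST1. LRP1B, a large lipoprotein receptor, had FPKM of 0.54, 24.0, 3.76 and 1.73.

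**Figure D3:**
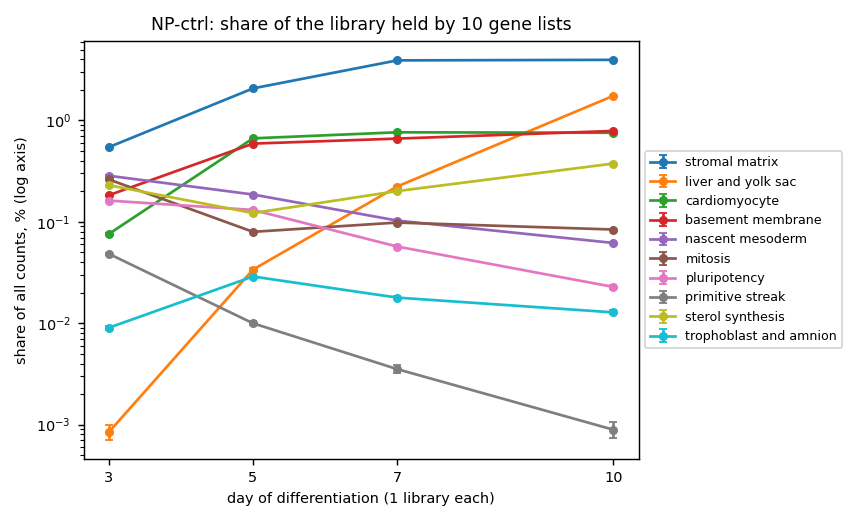
Share of all counts held by 10 gene lists on each day of the NP-ctrl course, in percent on a log axis, with Wilson 95% intervals as bars (1 library per day, counting error only). Stromal matrix climbs to 3.96%, liver and yolk sac genes climb from 0.000843% to 1.75%, cardiomyocyte genes stay near 0.7% from day 5, and the primitive streak list drops to 0.000891%.

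Early endoderm factors preceded the secreted proteins. Of 12 early endoderm genes, 3 rose and 2 fell by day 5, beside 6.82% and 6.25% of all genes. From day 5 to day 7, 4 fell, beside 1.87% of all genes. SOX17, the endoderm determinant, had FPKM of 16.7, 11.4, 0.71 and 1.14, and was 16.1-fold lower (10.5 to 26.0) on day 7 than on day 5. FOXA2, a pioneer factor of endoderm, had FPKM of 3.33, 10.6, 5.11 and 3.80. CXCR4 and CER1, which mark definitive endoderm, fell from 4.43 and 6.85 FPKM on day 3 to 0.81 and 0.05 on day 5. FOXA2 was thus highest on day 5, after CXCR4 and CER1 had fallen and while AFP was at 29 counts. CDH1, the epithelial cadherin, had FPKM of 15.1, 20.6, 9.64 and 22.5 and was the 1 gene of the list that rose from day 7 to day 10. With median-of-ratios scaling the median of this list was highest on day 3 instead.

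Secreted proteins of liver and visceral yolk sac rose last and furthest. The fetal liver and the yolk sac endoderm make the same set of apolipoproteins, alpha-fetoprotein, transthyretin and fibrinogen, so these genes alone do not tell them apart. Of 21 genes, 10 rose from day 3 to day 5, 15 from day 5 to day 7, 17 from day 7 to day 10 and 20 from day 3 to day 10, and none fell in any interval. The median difference from day 3 to day 10 was 7.26. The list held 0.000843% (0.000713 to 0.000996) of counts on day 3, and then 0.0338% (0.0329 to 0.0348), 0.223% (0.220 to 0.226) and finally 1.75% (1.74 to 1.75). Of the 10 largest increases of any protein-coding gene from day 3 to day 10, 8 were members of this list, namely AFP, APOA1, APOA4, AHSG, TTR, APOA2, SERPINA1 and APOC3, and the other two were COL3A1 and LUM.

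The members did not appear together. HNF4A, the nuclear receptor that governs hepatic genes, was first, with FPKM of 0.06, 3.88, 4.22 and 3.20, and had reached 91.9% of its highest level on day 5. MTTP, the lipid transfer protein that loads apolipoprotein B, had FPKM of 0.01, 6.27, 9.17 and 13.7. APOA1 (ENSG00000118137, chromosome 11, 116835751 to 116837622), the main protein of high-density lipoprotein, had counts of 6, 1728, 4601 and 15453 and FPKM of 0.34, 101, 317 and 1047. APOA1 was among the 5 largest increases of all protein-coding genes by day 5, at 299-fold (137 to 815). APOB, the scaffold of low-density lipoprotein, had FPKM of 0.04, 4.75, 27.1 and 177. On day 5, APOA1, APOB and MTTP were above AFP in FPKM.

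AFP (ENSG00000081051, chromosome 4, 73431138 to 73456174), the major serum protein of the fetus, had counts of 0, 29, 6488 and 101940 and FPKM of 0.00, 0.58, 153 and 2366. It was 264-fold higher (184 to 395) on day 7 than on day 5 and 15.5-fold higher (15.1 to 15.9) on day 10 than on day 7. On day 10 AFP had the highest FPKM of all protein-coding nuclear genes and held 0.757% (0.753 to 0.762) of all counts. TTR, the thyroid hormone carrier, had FPKM of 0.00, 3.58, 47.1 and 253. SERPINA1, which encodes alpha-1 antitrypsin, had FPKM of 0.01, 0.35, 25.7 and 184.

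The latest members were APOC3, APOA4, AHSG and FGG, the 4 genes of this list among the 5 largest increases from day 7 to day 10. APOA4, an intestinal and yolk sac apolipoprotein, had counts of 0, 0, 238 and 10399, and was 43.0-fold higher (37.8 to 49.1) on day 10 than on day 7. APOC3 (ENSG00000110245, chromosome 11, 116829706 to 116833072), an inhibitor of triglyceride clearance, had counts of 0, 3, 37 and 2001 and FPKM of 0.00, 0.22, 3.28 and 175. APOA1, APOC3 and APOA4 are neighbours on chromosome 11, and APOA1 preceded the other two. AHSG, which encodes fetuin-A, had FPKM of 0.03, 0.17, 15.6 and 454. ALB, the major protein of the adult liver, had FPKM of 0.22, 0.30, 0.81 and 5.28, and its level on day 10 was a small fraction of that of AFP. TF, which encodes transferrin, reached 1.14 FPKM.

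**Figure D4:**
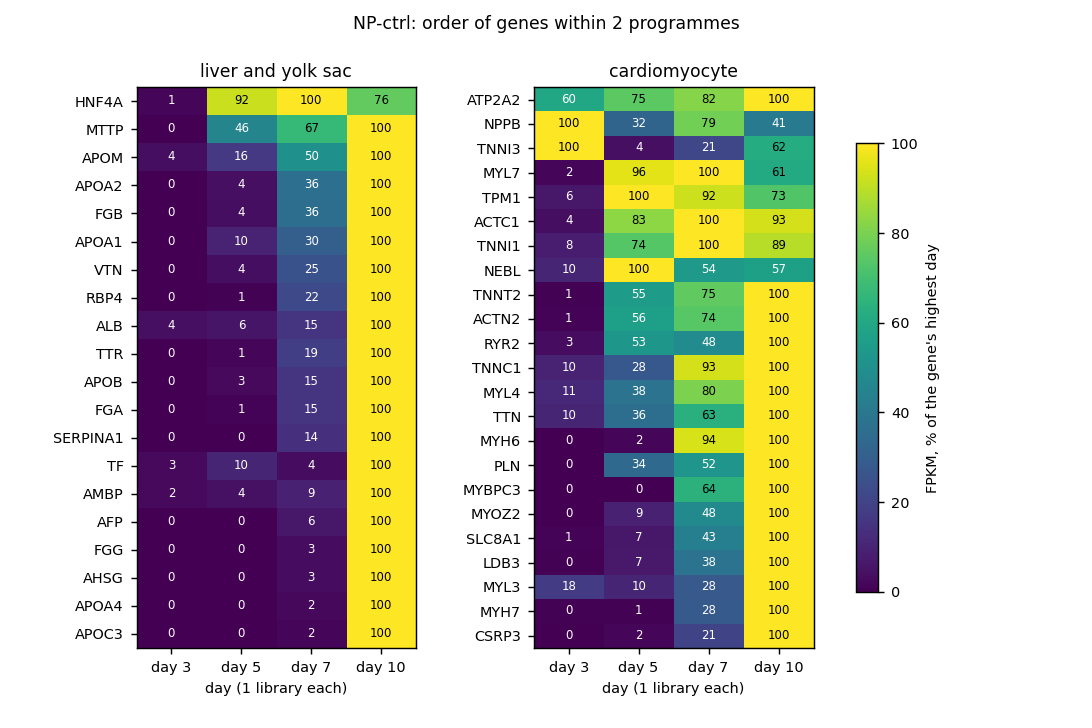
FPKM of each gene as a percentage of its own highest day in the NP-ctrl course, for the 20 liver and yolk sac genes (left) and the 23 cardiomyocyte genes (right) that passed the filter, 1 library per day. Genes are ordered by the first day on which they reached 50% of their highest FPKM. In the left panel HNF4A is at 92% of its highest level on day 5 while AFP is near 0, and in the right panel MYL7, TPM1 and ACTC1 precede MYH6 and MYBPC3.

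The 250 bases before the RefSeq start of AFP, APOA4 and AHSG, 3 of the 4 liver and yolk sac genes with the highest day 10 level, are shown because these genes moved from almost no counts to some of the highest levels in the culture. All are written 5′ to 3′ on the strand of the gene, on build GRCh38.p14, with matches in capitals. The AFP window is chr4:73435971-73436220 on the plus strand, and lies inside the span the count table gives this gene. The APOA4 window is chr11:116823305-116823554 on the minus strand, and the AHSG window is chr3:186612810-186613059 on the plus strand. Both strands were searched for 4 motifs, none of which contains another. The site of the nuclear receptor HNF4 was taken as CAAAGTCCA. The site of the TCF/LEF partners of beta-catenin was taken as CTTTGAT. The GATA factor site was taken as AGATAA, and the box bound by the basal machinery, the TATA box, was taken as TATAAA.
AFP: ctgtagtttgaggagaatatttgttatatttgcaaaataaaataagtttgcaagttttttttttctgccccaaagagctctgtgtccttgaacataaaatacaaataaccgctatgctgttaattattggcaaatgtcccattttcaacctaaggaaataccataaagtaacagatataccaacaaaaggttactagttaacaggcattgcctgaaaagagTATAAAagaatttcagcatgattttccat
APOA4: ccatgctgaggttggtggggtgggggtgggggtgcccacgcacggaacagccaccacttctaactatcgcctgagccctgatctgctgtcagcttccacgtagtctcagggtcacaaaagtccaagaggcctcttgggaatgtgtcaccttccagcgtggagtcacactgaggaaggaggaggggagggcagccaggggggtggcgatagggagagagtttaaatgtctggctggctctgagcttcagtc
AHSG: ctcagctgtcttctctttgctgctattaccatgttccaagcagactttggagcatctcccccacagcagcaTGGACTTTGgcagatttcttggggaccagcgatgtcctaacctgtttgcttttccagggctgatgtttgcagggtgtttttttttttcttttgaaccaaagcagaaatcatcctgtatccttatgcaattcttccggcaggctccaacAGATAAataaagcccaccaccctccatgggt
The AFP window holds a TATA box that begins 29 bases before the start. AHSG holds the HNF4 letters on the opposite strand, beginning 179 bases before the start, and a GATA match that begins 31 bases before it. No match was found in the APOA4 window. RefSeq windows were matched for 16 of the 21 genes of the list. GATA letters were in 4 of these (25.0%) against 9.37% of all 27305 windows, the HNF4 letters in 1 (6.25%) against 0.293%, the TATA box in 1 (6.25%) against 11.1%, and the TCF/LEF letters in 0 against 2.28%. These counts describe letters and do not show binding.

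HOX genes record the position of cells along the body axis, and in the embryo they are switched on in the order in which they lie in each cluster. In NP-ctrl cells HOX expression was almost wholly that of the HOXB cluster on chromosome 17. Of 10 HOXB genes, 9 passed the filter, against 1 of 11 HOXA, 1 of 9 HOXC and none of 9 HOXD genes. HOXA2 to HOXA9 had 0 counts in every library. HOXB2 had FPKM of 43.1, 93.4, 54.0 and 34.2. HOXB4 had 3.07, 25.3, 35.0 and 26.3. HOXB6 (ENSG00000108511, chromosome 17, 48595751 to 48604992) had 1.23, 43.0, 36.8 and 14.3, and was 35.0-fold higher (26.5 to 47.0) on day 5 than on day 3.

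By the first day at 50% of their highest level, the HOXB genes followed their order on the chromosome up to HOXB8, with ties. On day 3, HOXB2 to HOXB6 were at 46.1%, 24.8%, 8.77%, 6.46% and 2.86% of their highest level. The day of the highest level did not keep this order. It was day 5 for HOXB2, HOXB5 and HOXB6 and day 7 for HOXB3 and HOXB4. HOXB2 to HOXB6 all reached at least 50% of their highest level on day 5. HOXB7 and HOXB8 did so on day 7, with HOXB7 at 0.08, 1.97, 5.96 and 3.52 FPKM and HOXB8 at 0.00, 0.29, 3.30 and 2.78. HOXB9 had at most 1 count. The genes at the far ends of the clusters did not keep to this order. HOXB13 had FPKM of 6.01, 2.67, 1.89 and 1.25 and was highest on day 3, and HOXA13 had 0, 12, 88 and 54 counts in a cluster that was otherwise silent. Genes of the HOXB cluster overlap each other and strand was not stated, so the counts of neighbours may be mixed.

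**Figure D5:**
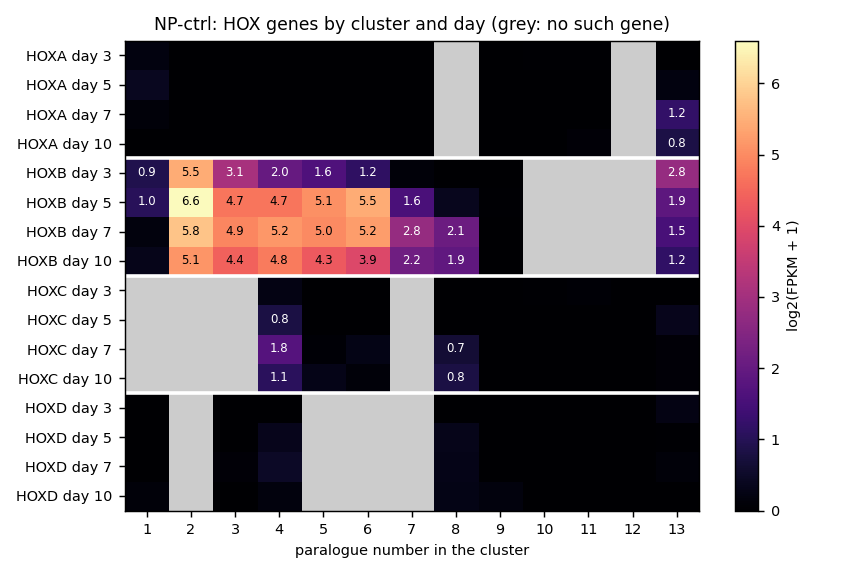
Level of the 39 HOX genes in the 4 NP-ctrl libraries, in log2(FPKM + 1), with clusters and days as rows and the number of the gene in its cluster as columns; values of at least 0.5 are printed. HOXB2 to HOXB6 lie between 3.9 and 6.6 from day 5 on, HOXB7 and HOXB8 reach 2.8 and 2.1 on day 7, and nearly all HOXA, HOXC and HOXD cells are close to 0.

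Signalling genes gave the context of these changes. No WNT inhibitor was added to these cultures. Of 14 WNT feedback targets, 3 fell and 2 rose from day 3 to day 5, beside 6.25% and 6.82% of all genes. By day 10, 6 had fallen and 2 had risen, beside 11.6% and 13.7% of all genes. SP5, a direct target of beta-catenin, had FPKM of 45.2, 7.26, 1.49 and 0.18. LGR5, the R-spondin receptor gene, had FPKM of 31.0, 39.2, 1.59 and 0.58 and was the largest decrease of any protein-coding gene from day 5 to day 7 in log2(FPKM + 1). As a ratio it was 24.6-fold lower (20.4 to 30.1), less than POU5F1 at 39.9-fold (18.1 to 110). AXIN2, a widely used target, had FPKM of 8.59, 7.24, 6.29 and 4.75 and did not pass the rule. DKK1, which is both a target and an inhibitor, rose between days 7 and 10, with FPKM of 2.91, 6.90, 3.97 and 18.0.

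The most abundant WNT ligand was WNT8A on day 3, WNT5A on day 5, WNT11 on day 7 and WNT5A on day 10. WNT5A, a noncanonical ligand, had FPKM of 31.6, 21.7, 14.0 and 19.7. WNT8A, a ligand of the streak, had counts of 1131, 2, 1 and 0, and WNT3 had FPKM of 11.5, 6.37, 4.17 and 3.66. WNT6, a ligand of surface and extraembryonic epithelia, was highest on day 5 at 11.1 FPKM. WNT11, a noncanonical ligand of the heart, had FPKM of 6.12, 7.16, 29.7 and 16.6 and was highest on day 7. WNT2, a ligand of the heart field and body wall, had 0, 6, 73 and 164 counts. Among the secreted antagonists, FRZB (ENSG00000162998, chromosome 2, 182833275 to 182866637) had FPKM of 4.92, 32.5, 343 and 368 and rose 10.5-fold (9.96 to 11.2) between days 5 and 7. SFRP5 had FPKM of 20.4, 27.3, 39.6 and 110, while SFRP1 dropped from 120 FPKM on day 3 to 42.5 on day 5. SFRP2 had FPKM of 43.3, 2.24, 0.76 and 21.0, so it was lost and came back.

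Of 8 BMP response genes, 1 rose and 1 fell by day 5, beside 6.82% and 6.25% of all genes, and the median difference from day 7 to day 10 was -0.54. ID1, the best known BMP target, had FPKM of 137, 137, 116 and 51.8, and BAMBI, a decoy receptor, had 142, 320, 204 and 127. In the retinoic acid list, 3 of 13 genes fell by day 5, beside 6.25% of all genes. The retinoic acid binding protein gene CRABP2 had FPKM of 596, 40.3, 24.2 and 16.6, which is 14.8-fold lower (13.7 to 16.0) on day 5. CRABP1 had FPKM of 150, 13.0, 2.52 and 2.32. The degrading enzyme gene CYP26A1 had counts of 204, 29, 53 and 0.

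Cell division genes fell at once between days 3 and 5. Of 12 mitosis genes, 11 fell in that interval, against 6.25% of all genes, and none was called afterwards. CCNB1, which encodes cyclin B1, had FPKM of 117, 27.9, 36.8 and 32.0. AURKB, the chromosomal passenger kinase, had FPKM of 57.9, 10.8, 12.0 and 7.36. DNA replication genes declined more gradually. Of 12 S phase genes, 2 fell from day 3 to day 5 and 7 from day 3 to day 10. The replicative helicase gene MCM2 had FPKM of 17.2, 19.3, 10.1 and 7.12, and PCNA, the polymerase clamp, had 88.6, 70.6, 49.3 and 39.0. CDKN1A, which encodes the cell cycle inhibitor p21, had counts of 215, 16, 52 and 194 and FPKM of 4.42, 0.34, 1.31 and 4.81. It was lowest on day 5, when the mitosis genes had fallen, and highest on day 10.

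Sterol synthesis genes dipped on day 5 and then climbed. Of 12 genes, 5 fell from day 3 to day 5, 8 rose from day 5 to day 7 and 3 rose from day 7 to day 10. HMGCS1 (ENSG00000112972, chromosome 5, 43287470 to 43313512), an early enzyme of the pathway, had FPKM of 19.3, 12.6, 36.6 and 96.4. INSIG1, which retains the sterol sensor in the endoplasmic reticulum, had FPKM of 16.8, 3.30, 13.5 and 29.0. SCD, a fatty acid desaturase, had FPKM of 170, 77.2, 102 and 266. The climb ran alongside that of APOB and MTTP, and the part of any 1 cell type in it was not tested. In the hypoxia list, the glucose transporter gene SLC2A1 had FPKM of 8.92, 27.6, 116 and 109, while ENO2 and BNIP3 were highest on day 3, and of the 12 genes 3 rose and 2 fell from day 3 to day 10. Among 12 p53 targets, 1 rose and 3 fell over the same span, in which 13.7% of all genes rose and 11.6% fell.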

How the data were processed

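Gene counts and FPKM for each library were deposited by the authors in a table of the whole series. Per the labels and the submitters' processing notes, they trimmed reads with cutadapt 1.9.1, aligned them to hg38 with HISAT2 2.0.1 and counted genes with HTSeq 0.6.1, and DESeq2 is also listed. FPKM recomputed from the counts, gene lengths and library totals differed from the deposited values by at most 0.005. Of the gene identifiers, 60463 matched GENCODE release 44, and 93.8% of these had the same coordinates there. Whether counting used strand is not given in the sources used here, so overlapping genes may share reads. The methods name a long-read library kit beside short-read tools, and this was not resolved.

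A gene was kept with at least 1 FPKM and 30 counts on at least 1 day, and called at a difference of at least 1 in log2(FPKM + 1), with a pseudocount of 1. Ratios have exact 95% intervals and shares have Wilson 95% intervals. A fold against 0 counts used a floor of 3 counts. With 1 library per day there was no test. The functions were tested on simulated data. A few items are not reported here.

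Named genes are list members plus protein-coding genes past the filter: the 10 largest increases and decreases from day 3 to day 10, the 5 largest of each per interval, and the 5 genes most above the next highest day for each day. The lists and the choice of libraries were made with earlier results of these data known. Alternatives were a pseudocount of 0.1, TMM (edgeR 4.0.16), median of ratios (DESeq2 1.42.0), TPM, no filter, a mean FPKM of at least 5, a difference of at least 2 and protein-coding genes only. Python 3.11.15, R 4.3.3, scipy 1.17.1 and pandas 2.3.3 were used.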

Additional observations from a re-analysis of the deposited data

How the results depend on the processing

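With 1 library per day, leaving out a replicate was not possible, and biological and technical spread are unknown. No paired analysis was possible because no result comes from a test. Signs were compared for list medians and for list or named genes from day 3 to day 10. None past the rule changed sign with a pseudocount of 0.1, TMM, median of ratios or TPM. Under at least 1 of these settings, 17 genes and 1 list median dropped below the rule. Another 38 genes and 5 list medians came to pass it. Signs of single genes and lists in the shorter intervals, and of all other genes, were not compared. Some smaller differences changed sign, among them the medians of the BMP response list (TPM) and of p53 targets (median of ratios). With TMM and median of ratios, the median of all genes went from 0.01 to -0.02 and -0.05 (day 3 to day 5). It went from 0.03 to -0.04 and -0.07 from day 3 to day 10, and from 0.02 to -0.01 with both from day 5 to day 7. TMM, median of ratios and protein-coding genes only kept all 8 counts of called genes within 1.5 times. With a pseudocount of 0.1, 1952 genes rose and 1419 fell from day 3 to day 5, 1143 and 624 from day 5 to day 7, and 706 and 416 from day 7 to day 10. With TPM, 2187 rose from day 3 to day 5 and 3645 from day 3 to day 10, 1052 rose and 480 fell from day 5 to day 7, and 628 rose and 293 fell from day 7 to day 10. With no filter, 1036 rose and 505 fell from day 5 to day 7, and 841 and 438 from day 7 to day 10. With a mean FPKM of at least 5, 640 rose and 493 fell from day 3 to day 5, 306 and 166 from day 5 to day 7, 110 and 90 from day 7 to day 10, and 940 and 1085 from day 3 to day 10. With a difference of at least 2, these pairs were 255 and 151, 99 and 35, 59 and 5, and 633 and 299. The stricter settings and the missing filter change the number of genes by their construction, and for the others the cause was not tested. The share of calls that were increases from day 3 to day 5 was 52.2% with FPKM, 70.2% with TPM, 49.3% with TMM and 46.1% with median of ratios, and the median of all genes was 0.22 with TPM. The day of the highest median moved to day 7 for lateral plate mesoderm (pseudocount 0.1, TPM), day 3 for early endoderm (median of ratios), day 10 for neural genes (TMM, median of ratios), day 5 for HOX (TPM), day 10 for p53 targets (TPM) and day 10 for hypoxia (pseudocount 0.1, TPM). Counts limit genes near the floor of 3 counts, such as early APOC3 and CSRP3.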

Other observations

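The genes of this section were named by the rule for the largest changes or, where said, were chosen after their values were seen. IGFBP3, which encodes an insulin-like growth factor binding protein, had FPKM of 0.34, 108, 284 and 221 on days 3, 5, 7 and 10. AQP1, a water channel of mesothelium and endothelium, had FPKM of 0.13, 2.90, 116 and 147. GAL and NTS, which encode the neuropeptides galanin and neurotensin, were day 3 transcripts, GAL with FPKM of 72.4, 1.23, 0.70 and 0.51 and NTS with 91.7, 2.26, 1.26 and 1.77. Genes highest on day 7 included the lipoxygenase gene ALOX15, with FPKM of 0.15, 8.06, 67.5 and 17.9, and PITX3, a homeobox gene, with 0.22, 2.55, 36.1 and 15.3.

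Metallothionein genes on chromosome 16 rose late, and all but MT1G were chosen after their values were seen. MT1G had counts of 3, 0, 1 and 351, and MT1H had 0, 0, 0 and 158. MT2A had FPKM of 2.09, 7.54, 18.6 and 46.1. These genes are similar in sequence, so their counts may not be fully separated.

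Imprinted growth genes were also chosen after their values were seen. IGF2, a fetal growth factor gene, had FPKM of 2.56, 35.2, 79.6 and 112. DLK1, a secreted or membrane-bound Notch-type ligand, had FPKM of 24.4, 4.06, 4.93 and 73.0, while MEG3 had 0.12 or less.

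Neighbouring genes on chromosome 17 moved together. TMEM88, which encodes a WNT pathway inhibitor of the cardiac lineage, had FPKM of 398, 987, 530 and 182. NAA38 had FPKM of 35.9, 171, 73.2 and 21.1, and CYB5D1 had 2.86, 62.7, 25.3 and 4.87. KDM6B, also nearby, had FPKM of 24.3, 56.2, 33.8 and 23.4, whereas CHD3 had 21.1, 22.5, 27.7 and 22.7. NAA38 and CYB5D1 overlap on opposite strands, and the part of shared reads in these values was not tested. NAA38, KDM6B and CHD3 were chosen after their values were seen.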
